A study of Homo sapiens with 12 samples.

Results

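The genes of cholesterol synthesis, uptake and efflux were followed in THP-1-derived tumor-associated macrophages (TAMs) cocultured with pancreatic cancer cells that overexpressed MMP28 or did not. The list holds 31 of the 58735 genes in the count table, taken by gene symbol from a list with no threshold on measured values, and each symbol was present once. The list was drawn up with earlier results of these data known. All 31 passed the filter on low counts, as did 16046 genes in all. By role the list holds 7 enzymes of the mevalonate pathway, 11 enzymes that turn farnesyl diphosphate into cholesterol, 5 genes of the SREBP machinery, 4 genes of intracellular transport and storage, and 4 genes of LXR and efflux. Of uptake it holds MYLIP, which limits lipoprotein receptors, and NPC1 and NPC2, which release cholesterol from endocytosed lipoproteins. Lipoprotein receptors are not among the 31.

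THP-1 is an established human line of monocytic leukemia cells, and the study made TAMs from it with the phorbol ester PMA. The TAMs were in the lower chamber of a Transwell dish and AsPC-1 cells, an established pancreatic cancer line, in the upper chamber. AsPC-1 cells carried an empty lentiviral vector in the control group (labelled NC) and a lentiviral vector with MMP28 cDNA, GFP and puromycin resistance in the other 3 groups. These were OE-MMP28 alone, OE-MMP28 with anti-IL-8 (MAB208-SP), and OE-MMP28 with anti-VEGFA (MAB293-SP), both of them neutralizing antibodies. Each group had 3 libraries. All groups share PMA and coculture, so TAMs without cancer cells and TAMs with a control IgG are not among these libraries, and an effect of adding any antibody cannot be told apart from neutralization. MMP28 was overexpressed in the AsPC-1 cells, which were not sequenced here, so its level in TAMs does not check the labels. The labels do not say whether the 3 libraries of a group came from separate cultures, and p-values measure the spread between these libraries, which may be technical.

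Cells make cholesterol from acetyl-CoA by way of mevalonate, farnesyl diphosphate, squalene and lanosterol. When sterols in the endoplasmic reticulum run low, the chaperone SCAP carries SREBP transcription factors to the Golgi, where they are cut free and turn on the genes of synthesis and uptake, and INSIG proteins hold SCAP back when sterols are plentiful. Excess sterol activates the nuclear receptor LXR, which in macrophages turns on the exporters ABCA1 and ABCG1, and cholesterol esters stored in lipid droplets give rise to foam cells.

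The 12 libraries held 15852346 to 18701195 counts, 6.92% to 17.8% of them from mitochondrial genes, and 3 counts correspond to 0.160 to 0.189 CPM. Of 10 macrophage and monocyte markers, among them CD14, CSF1R, SPI1 and ITGAM, 9 had at least 76 counts in every library, whereas CD68 had at most 5 counts in any library. The summed level of these markers was 7694 to 8718 CPM in the control, 7577 to 11281 CPM with OE-MMP28, 10303 to 12771 CPM with anti-IL-8 and 8590 to 10572 CPM with anti-VEGFA. ITGB2 was the largest part of each sum, at 4048 to 4677 CPM in the control and 5516 to 7254 CPM with anti-IL-8. Of the 9 markers past the filter, 8 had a positive log2 fold change with anti-IL-8 against the control. LYZ had a negative one, and the libraries of ITGAM and CSF1R overlapped between these groups. Of 10 epithelial markers, EPCAM was at 0 in every library and 7 had at most 10 counts in any library. Their sum was 8.85 to 11.7 CPM in the control, 5.96 to 10.9 CPM with OE-MMP28, 10.9 to 12.3 CPM with anti-IL-8 and 10.6 to 11.6 CPM with anti-VEGFA, most of it from CLDN7. Libraries differed in GC content: the correlation across genes between a library's deviation from the mean log2 level and transcript GC content was -0.43 to -0.20 in the control, -0.78 to 0.10 with OE-MMP28, 0.42 to 0.69 with anti-IL-8 and 0.17 to 0.36 with anti-VEGFA. The same correlation taken with the log2 of transcript length was -0.44 to 0.37 over the libraries. A fit with an offset for GC content and transcript length, added after the data had been seen, is therefore given with each comparison.

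The 31 genes together took 0.311% to 0.425% of the counts of a library. Per length, by the authors' FPKM, SQLE, the squalene epoxidase, was the most abundant, with a mean over the 12 libraries of 233 FPKM (range 191 to 274). It was followed by NPC2, the soluble sterol carrier of lysosomes, at 103 FPKM (range 82.6 to 129.8), INSIG1 at 59.5 FPKM (range 45.9 to 68.7), MSMO1 at 56.8 FPKM (range 40.0 to 67.7) and FDFT1 at 51.5 FPKM (range 40.4 to 63.2). The ranges of INSIG1, MSMO1 and FDFT1 overlapped, so that their order is not resolved, and that of SQLE overlapped with no other. At the low end were HSD17B7 at 2.33 FPKM (range 1.94 to 3.10), TM7SF2 at 1.89 FPKM (range 1.14 to 2.47), MVK at 1.11 FPKM (range 0.568 to 1.55) and CYP51A1 at 0.854 FPKM (range 0.264 to 1.65). The count of CYP51A1, the lanosterol demethylase, is uncertain: 79.4% of its exon bases are shared with other annotated genes on the same strand, and it had a mean of 52.2 counts. In ACAT2, 52.3% of exon bases lie opposite exons of other genes, and the labels do not say whether the counting used strand. FDPS has 8 annotated pseudogenes with which it could share reads.

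**Figure D1:**
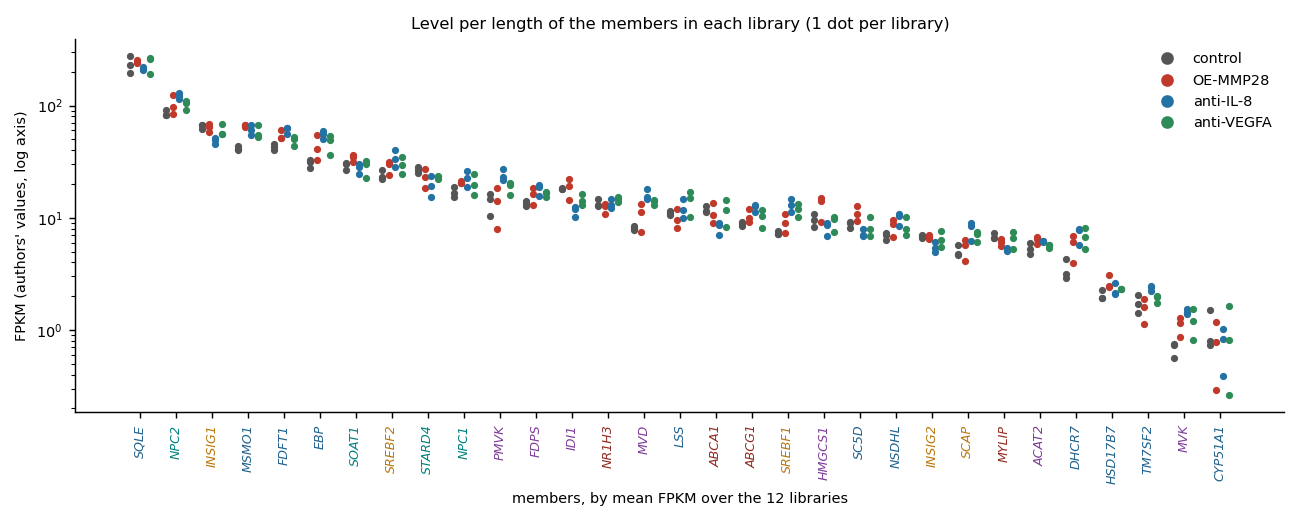
Authors' FPKM on a log axis for each of the 31 genes, ordered by mean over the 12 libraries, with 1 dot per library colored by group and gene names colored by role. SQLE sat between 191 and 274 FPKM in all libraries, above every other gene, and CYP51A1 ranged from 0.264 to 1.65 FPKM.

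SREBP binds sterol regulatory elements next to boxes for the factor NF-Y, and LXR binds a direct repeat, so these 3 motifs were looked for in the 250 bases before each annotated start. RefSeq promoters (GRCh38.p14) gave 37 windows for 27 of the 31 genes, several of which have more than 1 start, some overlapping; ABCG1, ACAT2, FDFT1 and SQLE had none. The NF-Y box (CCAAT on either strand) was present in 22 of 37 windows (59.5%), which belong to 20 genes, and in 32% of 35116 windows over all genes. The sterol regulatory element TCACNCCAC, on either strand, was present in 1 window, that of SREBF2, and in 0.883% of all windows. No mismatch was allowed apart from the N, so diverged elements, and any outside the 250 bases, would be missed. The LXR element, a direct repeat of AGGTCA spaced by 4 bases with at most 2 mismatches on either strand, was present in 1 window, that of ABCA1, and in 2.03% of all windows. A match is a description of these letters and does not show binding. Windows are printed 5′ to 3′ for 3 enzymes that rose in this study and have only 1 window, with an NF-Y box in it. They are also printed for both genes with a sterol or LXR element. Capitals mark NF-Y boxes in MSMO1 (chr4:165327419-165327668, plus strand), MVD (chr16:88663092-88663341, minus strand) and MVK (chr12:109573544-109573793, plus strand), the sterol regulatory element in SREBF2 (chr22:41832855-41833104, plus strand) and the LXR element in ABCA1 (chr9:104928156-104928405, minus strand).
MSMO1: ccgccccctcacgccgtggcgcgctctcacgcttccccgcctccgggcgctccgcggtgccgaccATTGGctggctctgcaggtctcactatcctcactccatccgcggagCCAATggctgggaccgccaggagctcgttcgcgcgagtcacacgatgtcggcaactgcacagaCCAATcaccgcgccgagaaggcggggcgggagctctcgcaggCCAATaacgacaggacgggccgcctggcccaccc
MVD: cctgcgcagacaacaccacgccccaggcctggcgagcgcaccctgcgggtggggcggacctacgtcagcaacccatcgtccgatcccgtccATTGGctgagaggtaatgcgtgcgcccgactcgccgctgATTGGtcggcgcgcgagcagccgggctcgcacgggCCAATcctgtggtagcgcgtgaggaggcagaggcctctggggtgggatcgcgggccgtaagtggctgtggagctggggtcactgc
MVK: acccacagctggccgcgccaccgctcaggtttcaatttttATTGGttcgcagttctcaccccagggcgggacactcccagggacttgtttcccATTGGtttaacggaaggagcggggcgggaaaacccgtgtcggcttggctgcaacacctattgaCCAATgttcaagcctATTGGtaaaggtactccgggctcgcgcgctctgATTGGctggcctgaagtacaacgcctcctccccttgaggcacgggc
SREBF2: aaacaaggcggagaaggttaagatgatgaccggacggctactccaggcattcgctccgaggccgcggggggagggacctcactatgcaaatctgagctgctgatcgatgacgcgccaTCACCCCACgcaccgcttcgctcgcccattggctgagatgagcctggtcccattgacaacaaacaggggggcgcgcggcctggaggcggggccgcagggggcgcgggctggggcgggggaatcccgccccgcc
ABCA1: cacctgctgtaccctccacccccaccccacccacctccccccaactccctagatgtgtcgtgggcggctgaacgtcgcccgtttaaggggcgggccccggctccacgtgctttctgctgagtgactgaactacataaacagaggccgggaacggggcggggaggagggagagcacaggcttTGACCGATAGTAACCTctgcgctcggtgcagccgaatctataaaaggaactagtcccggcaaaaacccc
The window of MSMO1 holds 4 NF-Y boxes, that of MVD 3 and that of MVK 5. A box was a condition for printing these 3 windows, so they do not show how common boxes are among enzymes that rose. The window of PMVK, which rose with anti-IL-8 against the control, holds no NF-Y box. In SREBF2 the sterol element begins 133 bases before the start, on the strand of the gene, and an NF-Y box 106 bases before it. In ABCA1 the LXR element begins 69 bases before the start, on the opposite strand, with 2 mismatches.

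Coculture with MMP28-overexpressing instead of vector AsPC-1 cells raised 1 of the 31 genes, MSMO1. It encodes the methylsterol monooxygenase, which takes part in the removal of methyl groups from lanosterol derivatives. No other gene of the list passed an adjusted p of 0.05 (edgeR quasi-likelihood test, Benjamini-Hochberg adjustment over all genes tested). Over all genes, 3.16% were called, 0.523% higher and 2.64% lower. At an unadjusted p under 0.05 there were 9 genes, every one an enzyme of the pathway and every one higher with OE-MMP28: MSMO1, HMGCS1, MVK, MVD, FDFT1, HSD17B7, EBP, SC5D and DHCR7. Over all genes 14.5% passed that mark and 5.93% did so with a higher level. The median log2 fold change was 0.26 over the 7 mevalonate enzymes, 0.33 over the 11 sterol enzymes, 0.09 over the SREBP machinery, 0.23 over transport and storage and -0.12 over LXR and efflux, against 0.02 over all genes tested. In bulk RNA, more or fewer cells of a kind and more or less RNA per cell cannot be told apart.

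MSMO1 stood at 120.0, 117 and 129 in the control, 189, 198 and 197 with OE-MMP28, 196, 159 and 173 with anti-IL-8 and 155, 158 and 198 with anti-VEGFA (CPM). The 3 control libraries lay below all other libraries, and those with OE-MMP28 lay close together. The difference was 1.60-fold (log2 fold change 0.68, SE 0.13, adjusted p = 0.00333), and it kept its call under all 25 alternatives. MSMO1 (ENSG00000052802, chr4:165327623-165343160 of GRCh38) has a GC content of 38.1%, among the lowest of the list, and its log2 fold change with GC and length offsets was 0.65 (adjusted p = 0.00276).

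DHCR7 stood at 18.1, 12.3 and 13.5 in the control, 25.7, 16.6 and 29.03 with OE-MMP28, 33.1, 24.1 and 32.4 with anti-IL-8 and 28.7, 22.1 and 34.5 with anti-VEGFA (CPM). DHCR7, the reductase of the last step to cholesterol, thus had 1 of 3 libraries with OE-MMP28 inside the control range, and its difference was not called (log2 fold change 0.70, SE 0.21, adjusted p = 0.0953). MVK stood at 3.72, 4.79 and 4.91 in the control, 7.53, 5.73 and 8.43 with OE-MMP28, 10.1, 9.07 and 9.41 with anti-IL-8 and 5.41, 9.97 and 7.95 with anti-VEGFA (CPM). MVK, mevalonate kinase, lay above the control in all 3 libraries with OE-MMP28 but at few counts, and was not called either (log2 fold change 0.69, SE 0.22, adjusted p = 0.115). HMGCS1 stood at 45.7, 51.4 and 39.9 in the control, 66.5, 70.9 and 43.9 with OE-MMP28, 32.2, 42.9 and 40.6 with anti-IL-8 and 46.5, 35.0 and 48.2 with anti-VEGFA (CPM). HMGCS1, which makes HMG-CoA and is a standard SREBP target, was higher in replicates 1 and 2 with OE-MMP28 and within the control range in replicate 3 (log2 fold change 0.41, SE 0.18, adjusted p = 0.298). SQLE stood at 1192, 852 and 1005 in the control, 1115, 1075 and 1047 with OE-MMP28, 956, 898 and 903 with anti-IL-8 and 1149.9, 829.6 and 1169 with anti-VEGFA (CPM). SQLE in the control overlapped with each of the other 3 groups, and its log2 fold change with OE-MMP28 was 0.09 (95% interval -0.21 to 0.38).

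With GC and length offsets, 6 of the 31 genes rose with OE-MMP28 and 0 fell, where 6.25% of all genes were called and 2.22% were called higher. They were MSMO1, DHCR7 (0.72, adjusted p = 0.0154), EBP (0.46, adjusted p = 0.0264), MVD (0.41, adjusted p = 0.00652), SREBF1 (0.39, adjusted p = 0.0314) and FDFT1 (0.34, adjusted p = 0.0417), values being log2 fold changes. The 3 libraries with OE-MMP28 differed most in GC content, replicate 2 having a correlation of -0.78 and replicate 3 one of 0.10, and the GC-rich genes MVD, EBP, DHCR7 and SREBF1 were lowest in replicate 2 and highest in replicate 3. Without replicate 2 of OE-MMP28 4 genes were called, without replicate 3 of OE-MMP28 2, and without replicate 2 of anti-VEGFA 2, against 1 with all libraries. Over all genes the share called in these settings was 3.12%, 2.6% and 3.89%, against 3.16%.

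**Figure D2:**
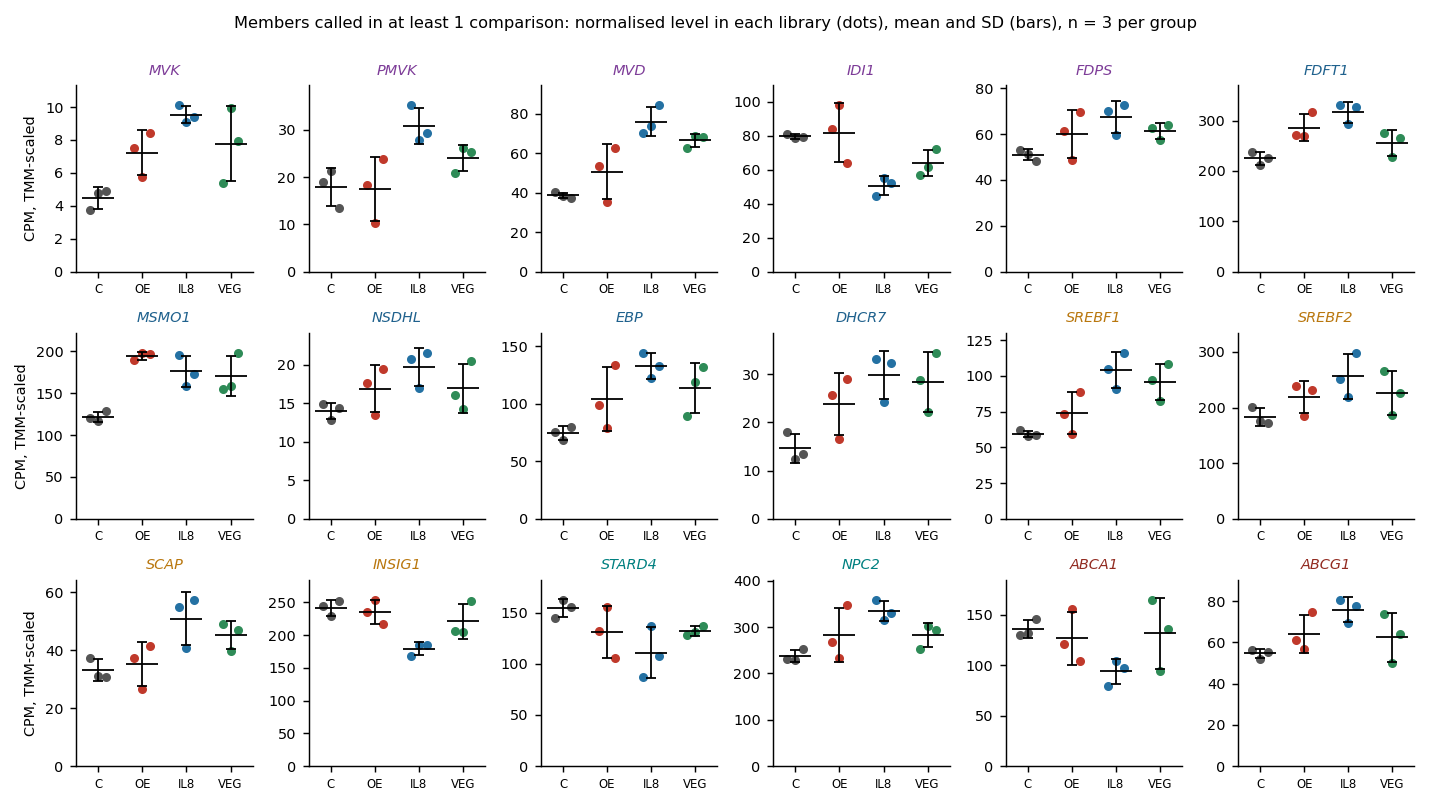
TMM-scaled CPM of the 18 genes called in at least 1 comparison, in each library (dots), with mean and SD (bars, n = 3) for the control (C), OE-MMP28 (OE), anti-IL-8 (IL8) and anti-VEGFA (VEG); each axis starts at 0. MVD went from 37.2 to 40.2 CPM in the control to 70.0 to 84.2 CPM with anti-IL-8, while IDI1 went from 78.6 to 81.2 CPM to 44.5 to 55.3 CPM.

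Against the vector control, TAMs of the MMP28 coculture with anti-IL-8 had 18 of the 31 genes called, 14 higher and 4 lower. Over all genes 20.7% were called, 9.77% higher and 10.9% lower. The 14 that rose were MVK, PMVK, MVD and FDPS of the mevalonate pathway, FDFT1, MSMO1, NSDHL, EBP and DHCR7 of the sterol steps, SREBF1, SREBF2 and SCAP of the SREBP machinery, NPC2 and the exporter ABCG1. The 4 that fell were IDI1, INSIG1, STARD4 and ABCA1. The median log2 fold change was 0.40 over the 31 genes and -0.02 over all genes tested. This comparison holds both the change of cancer cells and the antibody.

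Among the mevalonate enzymes, MVD stood at 40.2, 38.3 and 37.2 in the control, 53.4, 35.5 and 62.9 with OE-MMP28, 70.0, 73.8 and 84.2 with anti-IL-8 and 62.7, 68.8 and 67.9 with anti-VEGFA (CPM). MVD (ENSG00000167508, chr16:88651935-88663161), the mevalonate diphosphate decarboxylase, was higher in every anti-IL-8 library than in any control library, 1.97-fold (log2 fold change 0.98, SE 0.16, adjusted p = 0.00069). MVK, whose values are given above, was 2.13-fold higher (log2 fold change 1.09, SE 0.22, adjusted p = 0.00326). PMVK stood at 18.9, 21.2 and 13.5 in the control, 18.4, 10.4 and 23.9 with OE-MMP28, 35.2, 27.9 and 29.3 with anti-IL-8 and 20.97, 26.1 and 25.3 with anti-VEGFA (CPM). PMVK, the kinase between MVK and MVD, was called with anti-IL-8 (log2 fold change 0.78, SE 0.23, adjusted p = 0.0233) and had a log2 fold change of -0.03 with OE-MMP28 alone. FDPS stood at 53.2, 51.3 and 48.4 in the control, 61.6, 48.7 and 69.7 with OE-MMP28, 70.2, 59.4 and 72.5 with anti-IL-8 and 62.8, 57.3 and 63.8 with anti-VEGFA (CPM). FDPS, which joins the isoprene units to farnesyl diphosphate, was close to the threshold (log2 fold change 0.40, SE 0.14, adjusted p = 0.0446). IDI1 stood at 81.2, 78.6 and 79.5 in the control, 84.0, 97.9 and 63.7 with OE-MMP28, 44.5, 55.3 and 52.0 with anti-IL-8 and 57.1, 61.9 and 72.3 with anti-VEGFA (CPM). IDI1 (ENSG00000067064, chr10:1039152-1049170), the isomerase between MVD and FDPS, went the other way and was lower in every anti-IL-8 library than in any control or OE-MMP28 library (log2 fold change -0.66, SE 0.15, adjusted p = 0.00718). HMGCS1 was not called (log2 fold change -0.24, SE 0.18, adjusted p = 0.346), nor was ACAT2, the first enzyme, which spanned 20.9 to 29.5 CPM over the 12 libraries (log2 fold change 0.20, SE 0.13, adjusted p = 0.278).

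Among the sterol enzymes, MSMO1 stayed above the control with anti-IL-8 (log2 fold change 0.53, SE 0.13, adjusted p = 0.00885) and DHCR7 was 2.04-fold higher (log2 fold change 1.03, SE 0.21, adjusted p = 0.00402). EBP stood at 75.7, 68.2 and 79.8 in the control, 99.3, 79.1 and 134 with OE-MMP28, 144, 122 and 133 with anti-IL-8 and 89.5, 119 and 132 with anti-VEGFA (CPM). EBP, the sterol isomerase, was 1.78-fold higher with anti-IL-8 than in the control and spread most among the libraries with OE-MMP28 alone (log2 fold change 0.84, SE 0.17, adjusted p = 0.004). FDFT1 stood at 238, 212 and 225 in the control, 271, 270.0 and 316 with OE-MMP28, 330.1, 292 and 327 with anti-IL-8 and 275, 227 and 266 with anti-VEGFA (CPM). FDFT1, squalene synthase, was higher in every anti-IL-8 library than in the control (log2 fold change 0.49, SE 0.12, adjusted p = 0.0119). NSDHL stood at 14.9, 12.9 and 14.4 in the control, 17.7, 13.5 and 19.5 with OE-MMP28, 20.8, 17.0 and 21.6 with anti-IL-8 and 16.1, 14.2 and 20.5 with anti-VEGFA (CPM). NSDHL, which acts in the same demethylation as MSMO1, was just past the threshold (log2 fold change 0.49, SE 0.17, adjusted p = 0.0482). LSS stood at 83.7, 77.8 and 81.3 in the control, 87.0, 59.9 and 69.8 with OE-MMP28, 84.9, 73.0 and 106 with anti-IL-8 and 125, 73.8 and 110.1 with anti-VEGFA (CPM). LSS, the lanosterol synthase, overlapped between groups and was not called (log2 fold change 0.12, SE 0.18, adjusted p = 0.66). SQLE was not called (log2 fold change -0.15, SE 0.15, adjusted p = 0.517). The other 4 sterol enzymes were not called with anti-IL-8 against the control: TM7SF2 spanned 3.92 to 8.37 CPM, HSD17B7 9.36 to 15.0 CPM, SC5D 37.8 to 71.5 CPM and CYP51A1 0.952 to 6.00 CPM over all libraries.

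Of the SREBP machinery, SREBF1 stood at 61.9, 58.0 and 58.7 in the control, 73.4, 59.5 and 88.9 with OE-MMP28, 105, 91.1 and 116 with anti-IL-8 and 96.9, 82.7 and 108 with anti-VEGFA (CPM). SREBF1 (ENSG00000072310, chr17:17810399-17837002), which encodes the SREBP1 proteins, was 1.75-fold higher with anti-IL-8, with no overlap with the control (log2 fold change 0.80, SE 0.15, adjusted p = 0.00194). SREBF2 stood at 202, 175 and 172 in the control, 239, 185 and 232 with OE-MMP28, 252, 218 and 299 with anti-IL-8 and 266, 187 and 227 with anti-VEGFA (CPM). SREBF2, which encodes the SREBP most tied to cholesterol synthesis, was higher in all anti-IL-8 libraries than in the control as well, by less (log2 fold change 0.49, SE 0.15, adjusted p = 0.0341). SCAP stood at 37.5, 30.96 and 30.8 in the control, 37.4, 26.7 and 41.3 with OE-MMP28, 54.8, 40.7 and 57.4 with anti-IL-8 and 48.9, 39.7 and 47.0 with anti-VEGFA (CPM). SCAP, their chaperone, rose too (log2 fold change 0.62, SE 0.17, adjusted p = 0.017). INSIG1 stood at 245, 229 and 252 in the control, 236, 254 and 217 with OE-MMP28, 168, 184 and 185 with anti-IL-8 and 207, 204 and 252 with anti-VEGFA (CPM). INSIG1, which retains SCAP and is itself an SREBP target, was lower in every anti-IL-8 library than in any control or OE-MMP28 library (log2 fold change -0.43, SE 0.12, adjusted p = 0.021). INSIG2, its relative, spanned 19.4 to 30.8 CPM and was not called (log2 fold change -0.34, SE 0.14, adjusted p = 0.0964).

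In transport and storage, NPC2 stood at 231, 229.6 and 254 in the control, 267, 234 and 347 with OE-MMP28, 359, 316 and 331 with anti-IL-8 and 254, 302 and 294 with anti-VEGFA (CPM). NPC2 rose with anti-IL-8 against the control (log2 fold change 0.49, SE 0.14, adjusted p = 0.0219), and its membrane partner NPC1, at 158 to 259.6 CPM over all libraries, was not called (log2 fold change 0.40, SE 0.15, adjusted p = 0.0687). STARD4 stood at 145, 163 and 156 in the control, 132, 156 and 105 with OE-MMP28, 87.3, 137 and 108 with anti-IL-8 and 128, 132 and 137 with anti-VEGFA (CPM). STARD4, a soluble sterol carrier that is an SREBP target, fell with anti-IL-8 (log2 fold change -0.48, SE 0.16, adjusted p = 0.0403). SOAT1, which makes cholesterol esters, spanned 159 to 255 CPM and was not called (log2 fold change -0.10, SE 0.14, adjusted p = 0.653).

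The LXR and efflux genes did not move one way. ABCA1 stood at 129.9, 132 and 146 in the control, 121, 156 and 104 with OE-MMP28, 79.9, 105 and 97.3 with anti-IL-8 and 165, 93.9 and 136 with anti-VEGFA (CPM). ABCA1 (ENSG00000165029, chr9:104781002-104928237), the exporter to lipid-poor apolipoprotein, was lower in every anti-IL-8 library than in any control library and spread widely with anti-VEGFA (log2 fold change -0.53, SE 0.18, adjusted p = 0.0455). ABCG1 stood at 56.5, 52.0 and 55.4 in the control, 61.0, 56.8 and 74.5 with OE-MMP28, 80.6, 69.3 and 77.9 with anti-IL-8 and 73.7, 49.9 and 64.0 with anti-VEGFA (CPM). ABCG1, the exporter to lipoprotein particles, rose with anti-IL-8 (log2 fold change 0.47, SE 0.15, adjusted p = 0.0298). NR1H3 stood at 58.9, 58.6 and 68.0 in the control, 58.2, 50.1 and 60.7 with OE-MMP28, 56.2, 59.3 and 65.7 with anti-IL-8 and 63.6, 66.7 and 70.2 with anti-VEGFA (CPM). NR1H3, which encodes LXR alpha, overlapped between control and anti-IL-8 (log2 fold change -0.03, SE 0.12, adjusted p = 0.866). MYLIP stood at 22.2, 20.3 and 20.5 in the control, 18.5, 19.8 and 17.4 with OE-MMP28, 15.6, 16.7 and 15.3 with anti-IL-8 and 23.2, 16.3 and 20.4 with anti-VEGFA (CPM). MYLIP, an LXR target that marks lipoprotein receptors for degradation, was lower in every anti-IL-8 library than in the control and narrowly missed the threshold (log2 fold change -0.40, SE 0.14, adjusted p = 0.0531).

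The count for anti-IL-8 against the control depended on single libraries. It was 9 without replicate 1 of the control, 7 without replicate 2, 8 without replicate 3, 7 without replicate 1 of anti-IL-8 and 8 without replicate 3, and 14 to 20 when any other library was left out. Over all genes the share called moved with it, from 20.7% to 11.1%, 8.13%, 8.48%, 7.94% and 8.23% in the first 5 settings and to between 17.1% and 26.2% in the others. MVK, MVD, EBP, DHCR7 and SREBF1 stayed called whichever library was left out. FDFT1 and MSMO1 lost their call without replicate 2 of the control (highest adjusted p = 0.065 and 0.0506) and IDI1 without replicate 1 of anti-IL-8 (0.0627), whereas the calls of PMVK, FDPS, NSDHL, SREBF2, SCAP, INSIG1, STARD4, NPC2, ABCA1 and ABCG1 were each lost without 4 to 8 of the libraries. With GC and length offsets 13 genes were called, 11 higher and 2 lower, of which 12 were the same, and over all genes 14.5% were called and 7.17% called higher. MVK (0.86), MVD (0.55), EBP (0.62), DHCR7 (0.73), SREBF1 (0.49), MSMO1 (0.81), FDFT1 (0.49), NPC2 (0.56), SREBF2 (0.32), ABCG1 (0.35), IDI1 (-0.36) and INSIG1 (-0.33) kept their calls under these offsets, values being log2 fold changes. PMVK (0.37), FDPS (0.13), NSDHL (0.39), SCAP (0.31), STARD4 (-0.16) and ABCA1 (-0.30) lost theirs, and NPC1 gained one (0.43, adjusted p = 0.0153).

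**Figure D3:**
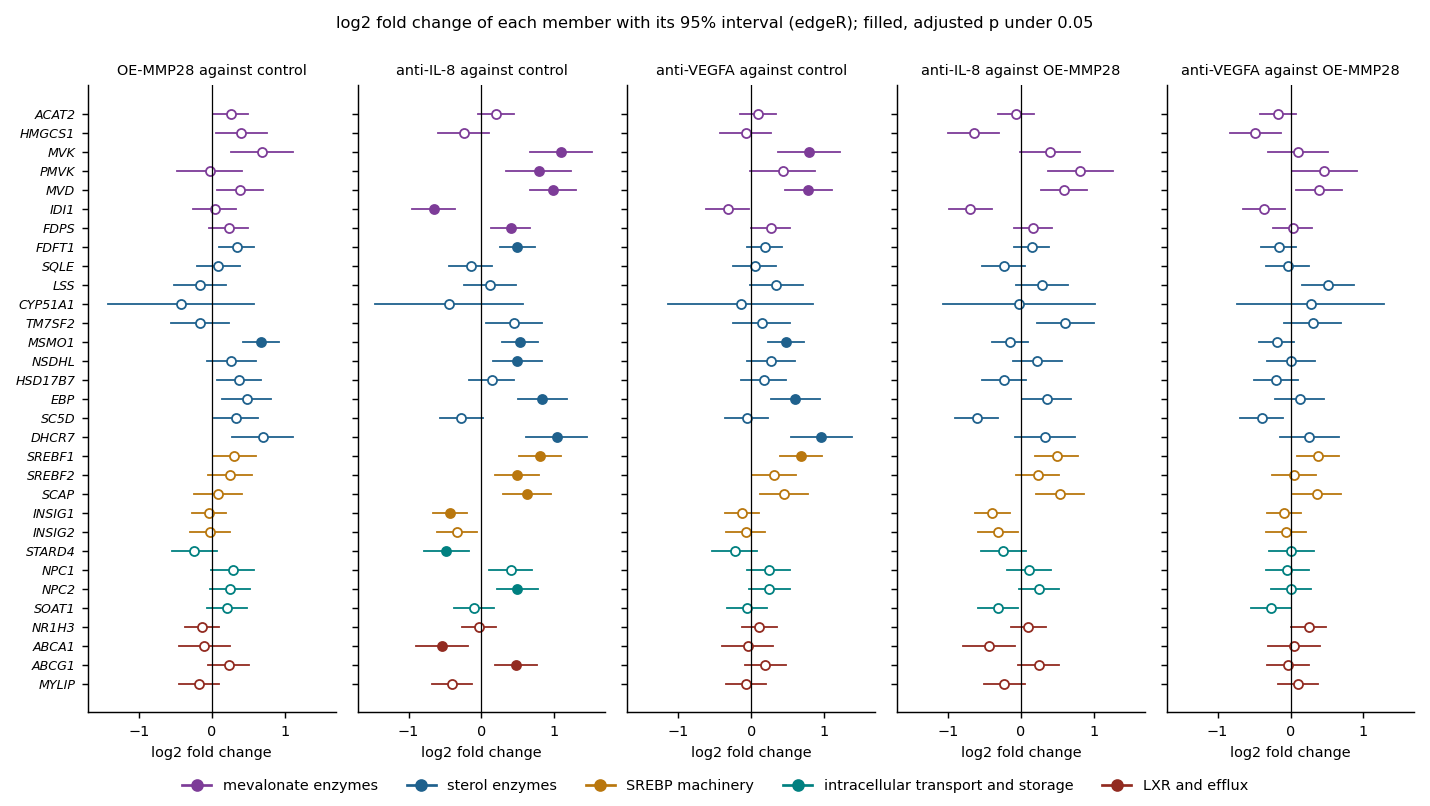
log2 fold change (edgeR, horizontal axis) of each of the 31 genes with its 95% interval (normal approximation) in 5 comparisons, colored by role. Filled points have an adjusted p under 0.05. There are 18 filled points for anti-IL-8 against control, 6 for anti-VEGFA against control, 1 for OE-MMP28 against control and 0 for either antibody against OE-MMP28.

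Against the vector control, the MMP28 coculture with anti-VEGFA had 6 of the 31 genes higher and 0 lower: MVK, MVD, MSMO1, EBP, DHCR7 and SREBF1. Over all genes 11% were called, 5.6% higher and 5.37% lower. DHCR7 was 1.95-fold higher (log2 fold change 0.96, SE 0.21, adjusted p = 0.00832), MVD 1.72-fold (log2 fold change 0.79, SE 0.16, adjusted p = 0.00504) and SREBF1 1.61-fold (log2 fold change 0.69, SE 0.15, adjusted p = 0.00721). MVK was 1.73-fold higher (log2 fold change 0.79, SE 0.22, adjusted p = 0.0276), EBP 1.52-fold (log2 fold change 0.61, SE 0.17, adjusted p = 0.0318) and MSMO1 1.40-fold (log2 fold change 0.48, SE 0.13, adjusted p = 0.0204). In all 6 genes the 3 anti-VEGFA libraries lay above the 3 control libraries. These genes were picked by their call, which makes such an order likely, and it was not counted over all genes. Of the genes that fell with anti-IL-8, IDI1 had a log2 fold change of -0.32 (adjusted p = 0.172), INSIG1 -0.13 (0.538), STARD4 -0.23 (0.381) and ABCA1 -0.05 (0.892) with anti-VEGFA, none of them called. Both antibody groups were set against the same control libraries, and their values are given side by side without a comparison of the lists.

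The count for anti-VEGFA was 3 without replicate 1 of the control, 2 without replicate 2 of the control and 3 without replicate 3 of anti-VEGFA, and over all genes the share called was 4.77%, 4.02% and 6.7% in these settings, against 11%. MVD and SREBF1 stayed called whichever library was left out. Replicate 2 of anti-VEGFA had the highest mitochondrial share of the series, 17.8%, and the lowest SQLE and ABCG1 levels, and without it 5 genes were called, and 8% of all genes. With GC and length offsets 6 genes were called, all higher, 5 of them the same, with NPC2 (0.38, adjusted p = 0.0297) in place of MVK (0.65, adjusted p = 0.0581), and over all genes 12.3% were called and 6.64% called higher. The log2 fold changes were then 0.79 for DHCR7, 0.66 for MSMO1, 0.54 for EBP, 0.46 for MVD and 0.41 for SREBF1.

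Neither antibody moved a gene of the list past the threshold against OE-MMP28 alone, the comparison in which the groups differ by the antibody. With anti-IL-8, 0 of the 31 genes were called, as were 0% of all genes, and 12 had an unadjusted p under 0.05, 5 higher and 7 lower, where 29.3% of all genes had one. The smallest adjusted p over all genes tested with edgeR was 0.0627 in this comparison, just short of the threshold. The 3 members named below for anti-IL-8 are among the genes that share this value, so it does not rank them. DESeq2 called 9 genes of the list, 5 higher and 4 lower, where it called 22.8% of the genes to which it gave an adjusted p. With anti-VEGFA, 0 were called where 0.343% of all genes were, 7 had an unadjusted p under 0.05 where 18.8% of all genes had one, and DESeq2 called 0 of the list and 3.28% of all genes with an adjusted p. The members with the largest differences under anti-IL-8 were PMVK (log2 fold change 0.81, SE 0.23, adjusted p = 0.0627), IDI1 (log2 fold change -0.69, SE 0.15, adjusted p = 0.0627) and HMGCS1 (log2 fold change -0.65, SE 0.18, adjusted p = 0.0627), all with an overlap-free order of the 3 anti-IL-8 and the 3 OE-MMP28 libraries. They were picked by their difference, and such an order was not counted over all genes. HMGCS1 was separated narrowly, with at most 42.9 CPM under anti-IL-8 and at least 43.9 CPM with OE-MMP28. Under anti-VEGFA the members with the largest differences were LSS (log2 fold change 0.51, SE 0.18, adjusted p = 0.161), HMGCS1 (log2 fold change -0.48, SE 0.18, adjusted p = 0.17) and PMVK (log2 fold change 0.46, SE 0.23, adjusted p = 0.283), all with overlapping libraries.

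MSMO1, the gene that OE-MMP28 raised, differed from OE-MMP28 by -0.15 with anti-IL-8 (95% interval -0.39 to 0.10) and by -0.19 with anti-VEGFA (95% interval -0.44 to 0.05) on the log2 scale. The control lay 0.68 below OE-MMP28, itself an estimate (95% interval 0.43 to 0.92) whose range the anti-VEGFA interval reaches. Compared directly with the control, MSMO1 was higher by 0.53 with anti-IL-8 and by 0.48 with anti-VEGFA. Leaving out a library lost the first call in 1 case and the second in 3. For DHCR7 the differences from OE-MMP28 with anti-IL-8 and anti-VEGFA were 0.33 (95% interval -0.08 to 0.74) and 0.26 (95% interval -0.15 to 0.67), for SREBF1 0.49 (95% interval 0.20 to 0.78) and 0.38 (95% interval 0.08 to 0.67), and for SQLE -0.23 (95% interval -0.53 to 0.06) and -0.04 (95% interval -0.34 to 0.26). Comparisons against OE-MMP28 share its 3 libraries with that of OE-MMP28 against the control, so a high OE-MMP28 value enters both with opposite sign.

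The comparisons against OE-MMP28 changed most without replicate 3 of OE-MMP28, whose GC content stood apart from the other 2. Its correlation with transcript length did so too, at -0.44 against 0.26 in replicate 1 and 0.34 in replicate 2. Without it 12 genes were called with anti-IL-8, 7 higher and 5 lower, and 5 with anti-VEGFA, 3 higher and 2 lower, and over all genes the share called went to 25.0% and 8.48%. Without replicate 2 of anti-VEGFA 7 genes were called with anti-IL-8, and 7.08% of all genes. Under anti-IL-8 the differences of the 31 genes followed GC content closely, with a Pearson correlation across genes of 0.853, against 0.809 over 11385 genes with a mean of at least 50 counts. These genes share libraries and are not independent replicates. The 5 genes higher at the unadjusted mark had a median GC content of 62.8%, the 7 lower ones 40.2%, and the whole list 50.2%. With GC and length offsets, PMVK was at 0.45, IDI1 at -0.40 and HMGCS1 at -0.33 with anti-IL-8, 6 genes had an unadjusted p under 0.05, and 0 were called under either antibody, where 0.0249% (anti-IL-8) and 0.312% (anti-VEGFA) of all genes were. With anti-VEGFA these offsets put LSS at 0.27, HMGCS1 at -0.26 and PMVK at 0.27. The correlation on the counts as deposited was 0.744 for anti-VEGFA against OE-MMP28, 0.729 for anti-IL-8 against the control, 0.71 for anti-VEGFA against the control and 0.136 for OE-MMP28 against the control.

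**Figure D4:**
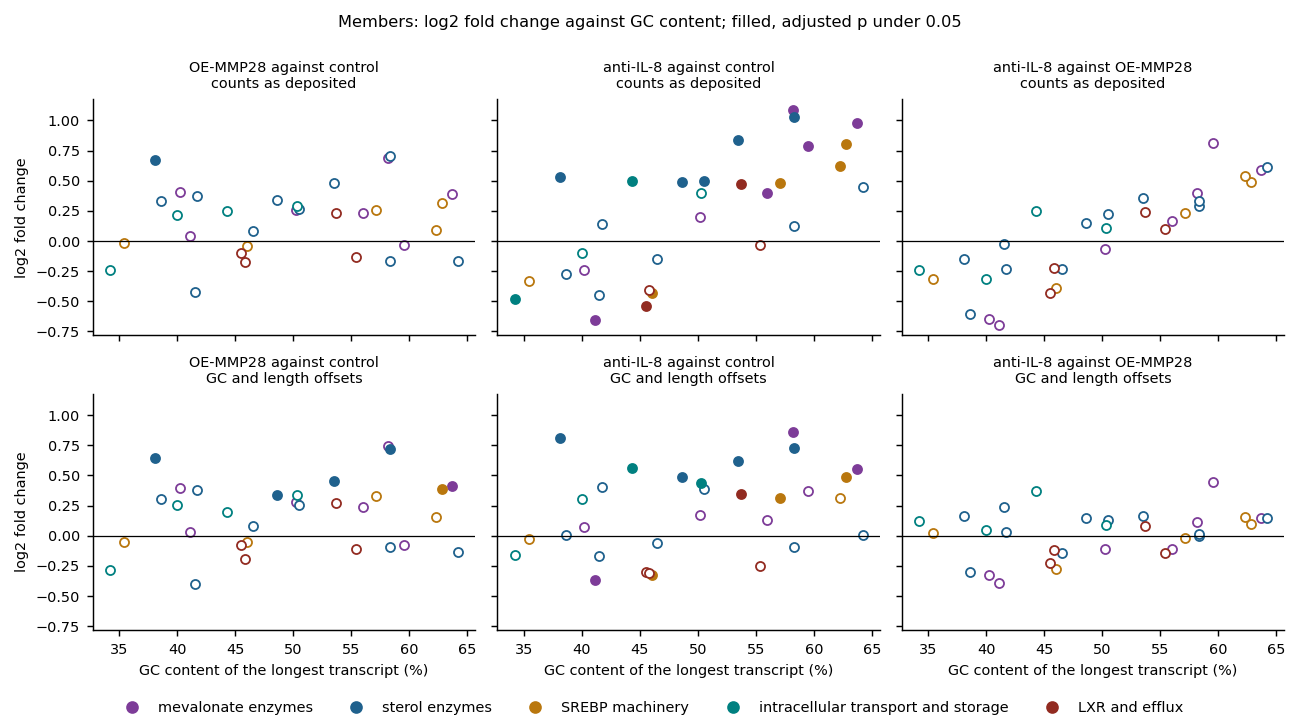
log2 fold change (vertical axis) against GC content of the longest transcript (percent, horizontal axis) for the 31 genes in 3 comparisons, on counts as deposited (top) and with GC and length offsets (bottom); filled points have an adjusted p under 0.05. On the counts as deposited, anti-IL-8 against OE-MMP28 rises from left to right (correlation 0.853), and OE-MMP28 against control has no such slope (0.136).

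No gene of the list separated the antibodies at the threshold. Between anti-VEGFA and anti-IL-8, 0 of the 31 genes were called, where 0.199% of all genes were, and 5 had an unadjusted p under 0.05, where 15% of all genes had one. DESeq2 called 0, and 1.5% of all genes with an adjusted p. The 5 were ABCA1 (log2 fold change 0.49, SE 0.18, adjusted p = 0.238), IDI1 (0.33), MYLIP (0.33) and INSIG1 (0.30), higher with anti-VEGFA, and FDFT1 (-0.31), lower. The difference in MSMO1 was -0.05 (95% interval -0.29 to 0.20) and in SREBF1 -0.12 (95% interval -0.41 to 0.17), and the interval of SREBF1 includes differences as large as that between OE-MMP28 and the control (0.31). The correlation of the 31 differences with GC content was -0.609 across genes. With GC and length offsets 0 genes were called and 6 had an unadjusted p under 0.05, with INSIG1 at 0.34 (adjusted p = 0.0782), MYLIP at 0.37, ABCA1 at 0.36, NR1H3 at 0.27, IDI1 at 0.25 and FDFT1 at -0.22 on the log2 scale, where 1.56% of all genes were called.

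Other genes of sterol metabolism were counted beside these, 46 genes of sterol sensing, the fatty acid branch of SREBP targets, the isoprenoid branch, LXR partners and targets, sterol traffic and oxysterol enzymes, of which 45 were tested and ELOVL6 was not. With OE-MMP28 2 rose and 1 fell, with anti-IL-8 against the control 7 rose and 2 fell, with anti-VEGFA against the control 4 rose and 2 fell, and 0 were called in the other 3 comparisons. This is 6.67%, 20% and 13.3% of the 45, against 3.16%, 20.7% and 11% of all genes. CYP27A1, which makes an oxysterol ligand of LXR, rose in all 3 comparisons with the control, at 6.13 to 6.70 CPM in the control, 10.9 to 12.0 CPM with OE-MMP28 (log2 fold change 0.86, SE 0.15, adjusted p = 0.00144), and with a log2 fold change of 1.08 under anti-IL-8 and of 0.79 under anti-VEGFA. VLDLR, a receptor for lipoproteins rich in triglycerides, lay at 55.0 to 57.2 CPM in the control and at 85.0 to 105 CPM with OE-MMP28 (log2 fold change 0.76, SE 0.14, adjusted p = 0.00396). GRAMD1B, which moves cholesterol from the plasma membrane to the endoplasmic reticulum, fell with OE-MMP28 (log2 fold change -0.65, SE 0.17, adjusted p = 0.0428). All 3 kept their calls with GC and length offsets, at 0.91, 0.80 and -0.58.

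With anti-IL-8 against the control, APOC1, an apolipoprotein and LXR target (log2 fold change 0.83, SE 0.23, adjusted p = 0.0173), and GRAMD1A, a relative of GRAMD1B (log2 fold change 0.72, SE 0.14, adjusted p = 0.00319), rose beside CYP27A1, and both were called with GC and length offsets too. With anti-VEGFA against the control, CYP7B1, an oxysterol hydroxylase (log2 fold change 0.71, SE 0.20, adjusted p = 0.0314), and FASN, the fatty acid synthase (log2 fold change 0.64, SE 0.19, adjusted p = 0.0374), rose and MBTPS2, the protease that makes the final cut in SREBP, fell (log2 fold change -0.63, SE 0.18, adjusted p = 0.0337). With GC and length offsets CYP7B1 stayed called (0.88, adjusted p = 0.00592), and FASN (0.25, adjusted p = 0.177) and MBTPS2 (-0.46, adjusted p = 0.102) were not.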

How the data were processed

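RNA of 12 libraries of TAMs cocultured with AsPC-1 cells was sequenced after NEBNext Ultra library preparation. Deposited read counts for each gene were used as the main measurement, and reads had been aligned with HISAT2 2.0.5 and counted with featureCounts 1.5.0-p3, per the submitters' processing notes. The authors' FPKM values, on a linear scale, were used for levels between genes and as an alternative. Genome build and strand setting are not given in the sources used here; 58724 of 58735 genes had the coordinates of GENCODE 29 (GRCh38). Further deposited columns hold the authors' comparisons (group means, fold changes on the log2 scale and p-values, raw and adjusted) and were not used. Every sample column was mapped to a sample (0 left over), and groups came from the labels.

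Counts were analysed in R 4.3.3 with edgeR 4.0.16: filterByExpr with the 4 groups, TMM scaling, estimateDisp (common dispersion 0.0231) and a quasi-likelihood fit over all 12 libraries with 1 coefficient per group and a prior count of 0.125. This left 16046 genes. Comparisons were contrasts, adjusted by Benjamini-Hochberg over all genes tested, with a threshold of 0.05, and all tests were two-sided. The study's methods name limma with a p threshold of 0.05 and do not say there whether p was adjusted. Limma and an unadjusted threshold were alternatives, with DESeq2 1.42.0, limma 3.58.1 (voom, and log2 of FPKM plus 1 or 0.1), library totals or DESeq2 size factors for scaling, no filter, a minimum of 10 counts in all libraries, only the 2 groups compared, a replicate block, and leaving out each library. Offsets from splines of GC content and length of the longest GENCODE transcript, and the mitochondrial share as covariate, were added after seeing the data. Values per library are counts scaled to the TMM-corrected library total (CPM). The fitting scripts were tested on simulated data. Promoter windows came from RefSeq.

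The members and lists were chosen with earlier results of these data known. Members given in every library were those called in at least 1 comparison, the 3 with the largest absolute log2 fold change (mean of at least 50 counts) in each comparison of the study, and HMGCS1, SQLE, INSIG1, SREBF1, SREBF2, ABCA1, ABCG1, NR1H3 and MYLIP. Of the other sterol genes, at most 4 called genes with the largest change were named per comparison.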

Additional observations from a re-analysis of the deposited data

How the results depend on the processing

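In OE-MMP28 against control, where 1 gene of the list was called, 2 were called by DESeq2, with no filter, with the replicate block and with the mitochondrial share as covariate, 6 with GC and length offsets, 9 with these offsets and the replicate block together, and 9 at an unadjusted p under 0.05, against 4.47%, 2.05%, 3.2%, 3.24%, 6.25%, 6.58% and 14.5% of all genes in that order. Leaving out a library gave 1 to 4 (1.79% to 3.89% of all genes). In anti-IL-8 against OE-MMP28, where 0 were called, 9 were called by DESeq2 and with the mitochondrial covariate, 7 with no filter, 5 with the replicate block and 12 at the unadjusted threshold. Of all genes these settings called 22.8% (DESeq2), 10.8%, 4.18%, 4.95% and 29.3%. Leaving out a library gave 0 to 12 (0% to 25.0% of all genes), the highest without replicate 3 of OE-MMP28. In anti-VEGFA against OE-MMP28, from 0, there was 1 with the mitochondrial covariate (1.93% of all genes) and 7 at the unadjusted threshold (18.8%), and leaving out a library gave 0 to 5 (0.0486% to 8.48%). In anti-IL-8 against control (18) and anti-VEGFA against control (6), the changes of over 1.5 times came from leaving out a library, which gave 7 to 20 and 2 to 7 (7.94% to 26.2% and 4.02% to 15.7% of all genes). In anti-VEGFA against anti-IL-8, 5 passed the unadjusted threshold (15% of all genes) and 0 were called in every other setting. The cause was not tested in any of these. No call on a single gene changed direction under any alternative, and the median log2 fold change of the 31 genes moved by less than 0.1283, the SD between libraries of a group, in every setting.

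Same-numbered libraries went together only in part. Correlations above 0.1 were seen in 3 of 6 pairs for replicate 1, 4 of 6 for replicate 2 and 0 of 6 for replicate 3. The labels do not say whether equal numbers mark a shared batch, which was not tested. Deviations from the group means correlated between same-numbered libraries by -0.169 to 0.408 for replicate 1, -0.201 to 0.39 for replicate 2 and -0.211 to 0.057 for replicate 3. With the replicate block, 2, 5, 0, 18, 7 and 0 genes of the list were called in the comparisons in the order above, and 3.2%, 4.95%, 0.231%, 21.5%, 10.9% and 0.162% of all genes. Depth limits the weakest genes: CYP51A1 had 15 to 101 counts per library and MVK 63 to 157, and their intervals cover counting error and library spread alike.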
